A study of Mus musculus with 7 samples.

Results

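The elastic fibre genes described here are 10 named genes of the deposited table of 32544: the core protein gene Eln, the microfibril genes Fbn1, Mfap2, Mfap4 and Mfap5, the fibulin genes Fbln1 and Fbln5, the cross-linking enzyme genes Lox and Loxl1, and the surface glycoprotein gene Emilin1. They were selected by gene name, with earlier results of these data known. The animals were male and Apoe-/-, a genotype without apolipoprotein E in which plaques form in the artery wall, and whole abdominal aortas were the source of the RNA. All animals ate a high-fat diet for 12 weeks and received 50 mg/kg of particles by intravenous injection 1 time a week, either ITA-LNP (3 libraries) or the control LNP (4 libraries). The titles write NP and the protocol LNP, and ITA was read, from the title of the series, as itaconate, a metabolite of activated macrophages. Both groups carry the Apoe deletion and the diet, and no untreated or normally fed group was part of the comparison. Whether each library stands for its own mouse is not stated in the labels, so the p-values rest on a spread between libraries that may be partly technical.

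Elastic fibres let the aorta stretch with each heartbeat and recoil. Tropoelastin, the soluble product of Eln, is gathered on microfibrils built mainly of fibrillin-1, guided there by fibulins, and cross-linked by lysyl oxidases into a polymer that lasts for most of an animal's life. In the aorta the polymer forms concentric sheets between layers of smooth muscle cells, which make most of it, and fragmentation of these sheets accompanies plaque growth and aneurysm.

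Levels are given as CPM, the reads of a gene per 1000000 reads over the genes of the table, and the libraries held 5077073 to 7281721 reads. They were made from the 3′ ends of transcripts, so gene length does not enter the level. Comparisons between genes still depend on how reads were aligned and counted, which is not given. The control-LNP libraries went against their tissue label. The 8 smooth muscle markers (Acta2, Myh11, Tagln and others), which define the aortic media, had a sum of 16376 to 20085 CPM with ITA-LNP but of only 118 to 215 CPM with control LNP. The platelet marker sum was 45.0 to 153 CPM against 4766 to 6355 CPM, and the B cell marker sum 5.22 to 25.3 CPM against 724 to 2079 CPM. Of these lists, 8 of 8 smooth muscle markers passed the test as higher with ITA-LNP. Passing as lower were 7 of 8 platelet and 5 of 6 B cell markers. Over all genes tested, 10.3% passed as higher and 5.15% as lower. Some other lists were less uniform: 4 of 7 fibroblast and 5 of 7 endothelial markers passed as higher and 0 as lower. Of 6 macrophage markers, 4 passed as higher and 1 as lower. Control-LNP 2 also stood apart from the other controls, with a neutrophil marker sum of 26290 CPM against 895 to 10125 CPM in the others. It had reads of only 10846 genes at a depth of 6688872 reads, against 14232 to 15333 genes in the other controls. In every comparison of the 2 groups the treatment and the content of wall RNA therefore cannot be told apart.

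The elastic fibre genes were far higher in the ITA-LNP libraries. Of the 9 genes with enough reads to test, 9 passed as higher, in limma's test on log2(CPM + 1) with Benjamini-Hochberg adjustment over 12636 genes and a threshold of 0.05. Of all genes tested, 10.3% were called higher and 5.15% lower. In 9 of 9, every ITA-LNP library lay above every control-LNP library, which held for 19.1% of all genes tested. The median log2 fold change was 6.20 over the 9 genes and 0.15 over all genes tested. The minimum level for the test was a mean over all 7 libraries. A gene near 0 reads in the controls, here Fbln1, could therefore enter only through the ITA-LNP libraries. For such a gene a call as higher, and groups without overlap, were favoured in advance. Without the filter 8 of 10 passed as higher. Fbln1 was among them (limma adjusted p = 0.0118), while Emilin1 (0.0698) and Mfap2 did not pass. In bulk tissue, fewer cells of a type and less RNA per cell cannot be told apart. Markers of other cell types moved with this result. With ITA-LNP the smooth muscle sum was 119-fold higher and the fibroblast sum 20.7-fold higher (36.0-fold without control-LNP 2). The cartilage and bone sum was 280-fold, the adipocyte sum 135-fold and the endothelial sum 5.50-fold higher, while the platelet and B cell sums were lower. The part of these cell types in the result was not tested. Without control-LNP 2 the count was again 9, and over the 18 alternative analyses it was 7 to 9.

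**Figure D1:**
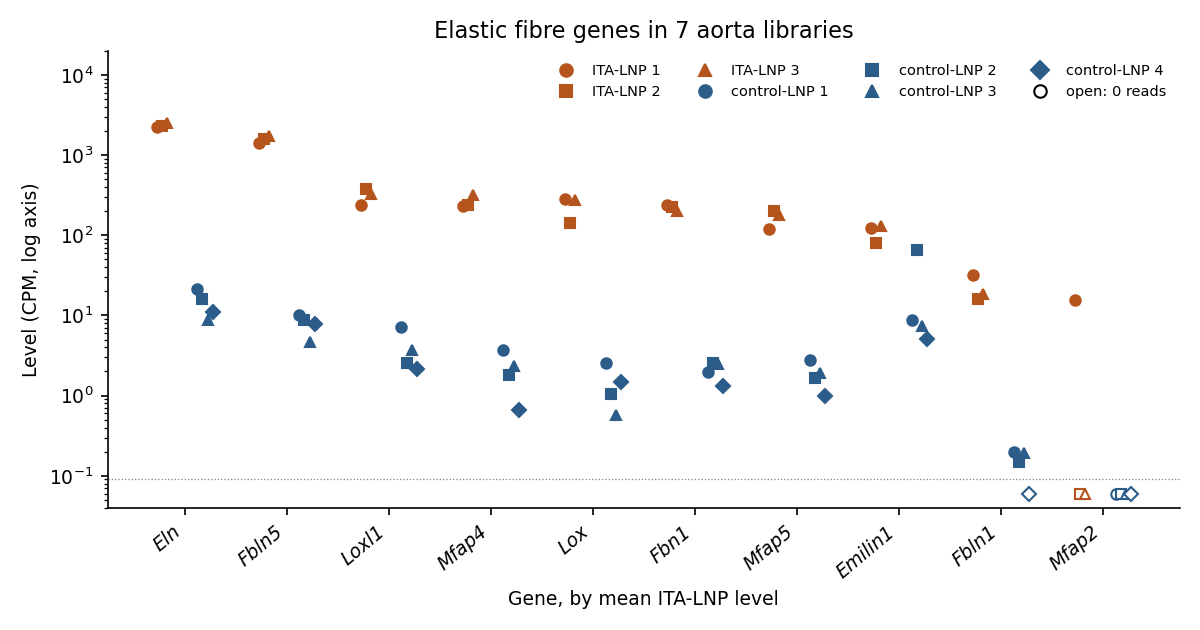
Level in CPM (log axis) of the 10 elastic fibre genes, ordered by their mean ITA-LNP level, with 1 point per library, brown for ITA-LNP and blue for control-LNP. Open symbols under the dotted line mark 0 reads, and the control-LNP 2 square of Emilin1, at 64.9 CPM, lies close to the ITA-LNP points. The other genes are widely separated between groups except Mfap2, which has reads in ITA-LNP 1 only.

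Eln encodes tropoelastin, the elastic core of the fibre (GENCODE M21 on mm10, chromosome 5, 134702593 to 134747323, minus strand). Its level was 2269, 2326 and 2505 CPM in ITA-LNP 1, 2 and 3 and 21.5, 15.8, 8.85 and 11.2 CPM in control-LNP 1, 2, 3 and 4. The lowest ITA-LNP library was 106-fold above the highest control. Group means were 2367 ± 123 CPM (SD, n = 3) and 14.3 ± 5.58 CPM (SD, n = 4), a ratio of 165. The log2 fold change was 7.34 ± 0.43 (SE), with a limma adjusted p of 1.17e-05, rank 18 by p among all genes tested. Within the ITA-LNP group Eln was the steadiest of the elastic fibre genes, with a coefficient of variation of 5.20%. An antisense gene, Gm30003, shares 267 exonic bases with Eln on the other strand but does not cover its 3′ end.

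Fbn1 encodes fibrillin-1, the main rod of the microfibril and the gene mutated in Marfan syndrome (chromosome 2, 125300594 to 125507993, minus strand). Its level was 238, 226 and 201 CPM in the treated libraries and 1.97, 2.54, 2.50 and 1.31 CPM in the controls. The groups were widely apart, with means of 222 ± 18.9 CPM (SD, n = 3) and 2.08 ± 0.575 CPM (SD, n = 4) and a log2 fold change of 6.20 ± 0.68 (SE, limma adjusted p = 0.000412). Mfap4, whose product binds tropoelastin and fibrillin and helps fibres assemble, lies on chromosome 11 (61485431 to 61488900, plus strand). Its levels were 235, 238 and 316 CPM against 3.74, 1.79, 2.31 and 0.656 CPM, with a log2 fold change of 6.48 ± 0.72 (SE, limma adjusted p = 0.000426). The 3′ end of Mfap4 overlaps Mapk7 on the other strand by 89 exonic bases. Without strand in the counting, reads of the pair could not be told apart there. Mapk7 itself reached at most 23.2 CPM in any library.

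Mfap5, also called MAGP-2, encodes a small glycoprotein that sits on the microfibril (chromosome 6, 122505845 to 122529290, plus strand). Its level was 119, 199.7 and 177 CPM in the treated libraries and 2.76, 1.64, 1.92 and 0.984 CPM in the controls. ITA-LNP 1 was the lowest of its group, yet 43.1-fold above the highest control. The log2 fold change was 5.88 ± 0.74 (SE, limma adjusted p = 0.000809). Mfap2, or MAGP-1, is the close relative of Mfap5 (chromosome 4, 141010418 to 141015984, plus strand) and had a different record. It held 100 reads in ITA-LNP 1, or 15.7 CPM with an exact 95% Poisson interval of 12.8 to 19.1 CPM, and 0 reads in the other 6 libraries. A count of 0 allows up to 0.442 CPM in ITA-LNP 2 and 0.412 CPM in ITA-LNP 3, taking 3 reads as the limit, so the ITA-LNP libraries differ from each other by far more than counting error. Such limits and intervals cover counting error only. Mfap2 did not reach the minimum mean level for the test, and its presence in 1 library of 7 shows no difference between the groups.

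Fibulins bridge tropoelastin to the microfibril. Fbln5 encodes fibulin-5, which binds tropoelastin and Loxl1 and whose loss leaves arteries stiff and tortuous. Among the 5 elastic fibre genes with a RefSeq start-site sequence, the fibulins are shown, as a higher and a lower gene of a single family. Those of Fbn1 and Emilin1 lie wholly within GENCODE exons of their gene and are not shown. Each printed window runs from 250 bases before to 50 bases after a RefSeq transcript start on GRCm38.p6, on the gene's own strand. It is the first of 2 windows listed for the gene. The Fbln5 window is chr12:101819070-101819369 (minus strand) and shares 0 bases with GENCODE exons of the gene. The Fbln1 window is chr15:85205699-85205998 (plus strand) and shares 50.
Fbln5: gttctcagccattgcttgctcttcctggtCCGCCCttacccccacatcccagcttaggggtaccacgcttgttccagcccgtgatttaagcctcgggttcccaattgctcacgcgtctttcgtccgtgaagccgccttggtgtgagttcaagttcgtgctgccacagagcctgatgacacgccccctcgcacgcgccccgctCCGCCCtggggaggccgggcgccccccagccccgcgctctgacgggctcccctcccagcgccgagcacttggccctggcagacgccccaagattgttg
Fbln1: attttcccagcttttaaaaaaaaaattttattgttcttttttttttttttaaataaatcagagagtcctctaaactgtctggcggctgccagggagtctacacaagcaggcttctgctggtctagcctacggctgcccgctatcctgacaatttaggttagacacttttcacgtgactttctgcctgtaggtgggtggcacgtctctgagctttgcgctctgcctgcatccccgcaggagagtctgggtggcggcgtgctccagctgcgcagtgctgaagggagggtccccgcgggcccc
Capitals mark matches, on either strand, to 7 short motifs: GGGCGG (the GC box), TATAAA (the TATA box), GGAATG (the TEAD motif), TGANTCA (the AP-1 motif), GAGGAA (an ETS motif), AGATAA (for factors of the GATA family) and the CArG box. The ETS and TEAD motifs can overlap by shared letters. The Fbln5 window held GGGCGG 2 times, read on the opposite strand as CCGCCC, starting 221 and 48 bases before the start. GGGCGG occurred in 35.7% of the 32851 mouse start-site windows of that length. The Fbln1 window held none of the 7 motifs. GC content was 65.7% for Fbln5 and 51.7% for Fbln1, against a median of 52.7% over all windows. A match is a description of letters and not a binding site.

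Fbln5 (chromosome 12, 101746565 to 101819055, minus strand) was the second most abundant elastic fibre gene. Its level was 1429, 1600.4 and 1738 CPM with ITA-LNP and 10.2, 8.82, 4.62 and 7.87 CPM in the controls, with no overlap. Means were 1589 ± 155 CPM (SD, n = 3) and 7.89 ± 2.39 CPM (SD, n = 4), and the log2 fold change of 7.52 ± 0.47 (SE, limma adjusted p = 1.65e-05) was the largest of the 9 tested genes. Fbln1 (chromosome 15, 85205949 to 85286535, plus strand) encodes fibulin-1, found in elastic fibres and in basement membranes. It was much scarcer, at 31.7, 16.2 and 18.7 CPM with ITA-LNP, from 202, 110 and 136 reads. The control-LNP libraries held 1, 1, 1 and 0 reads, so its control level rests on 3 reads in all. Its log2 fold change of 4.30 ± 0.75 (SE, limma adjusted p = 0.0039) was set in part by the pseudocount of 1 CPM, and was 5.84 with 0.25 CPM and 2.62 with 4 CPM. The call was lost when each library was centred on its median (log2 fold change 3.17, adjusted p = 0.0688).

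Lysyl oxidases join tropoelastin and collagen chains by oxidising lysine side chains. Lox encodes the founding enzyme, without which mice die of aortic rupture around birth (chromosome 18, 52516067 to 52529867, minus strand). Treated libraries held 286, 141 and 272 CPM, against 2.56, 1.05, 0.577 and 1.48 CPM in the controls. ITA-LNP 2 lay well under the other treated libraries, giving 233 ± 80.0 CPM (SD, n = 3) and a coefficient of variation of 34.4%. The log2 fold change was 6.59 ± 0.76 (SE, limma adjusted p = 0.000512). Loxl1 (chromosome 9, 58287738 to 58313186, minus strand), whose product is tethered to elastic fibres by fibulin-5, was at 240.3, 377 and 332 CPM against 7.09, 2.54, 3.65 and 2.13 CPM. Here ITA-LNP 2 was the highest of its group, the reverse of Lox. Loxl1 per 100 CPM of Lox was 84.0, 268 and 122 with ITA-LNP and 277, 243, 633 and 144 in the controls, so the balance of the 2 enzymes overlapped between groups. The log2 fold change of Loxl1 was 6.11 ± 0.66 (SE, limma adjusted p = 0.000373).

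Emilin1 encodes an elastin microfibril interfacer, a glycoprotein at the boundary of the elastic core and its microfibrils that also restrains TGF-beta processing (chromosome 5, 30913402 to 30921277, plus strand). It departed from the others. Its level was 123, 79.0 and 131 CPM with ITA-LNP and 8.67, 64.9, 7.31 and 5.08 CPM in control-LNP 1 to 4, from 44, 434, 38 and 31 reads. The lowest ITA-LNP library was only 1.22-fold above control-LNP 2, although the groups did not overlap. Means were 111 ± 28.0 CPM (SD, n = 3) and 21.5 ± 29.0 CPM (SD, n = 4), a ratio of 5.17, which was 15.8 without control-LNP 2. The log2 fold change was 3.03 ± 0.89 (SE, limma adjusted p = 0.0466, 95% interval 1.04 to 5.02). This call was lost under 13 of 18 alternatives, with adjusted p from 3.42e-05 to 0.43, the last with median centring, where the log2 fold change was 1.90. Without control-LNP 2 the log2 fold change was 3.80 and the adjusted p 0.00049. In control-LNP 2 the neutrophil marker sum was also the highest of all libraries, at 26290 CPM, as were the control fibroblast (114 CPM) and endothelial (366 CPM) sums. That library also had reads of the fewest genes, 10846 against 14232 to 15333 in the other controls. The part of these features in the level of Emilin1 was not tested.

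**Figure D2:**
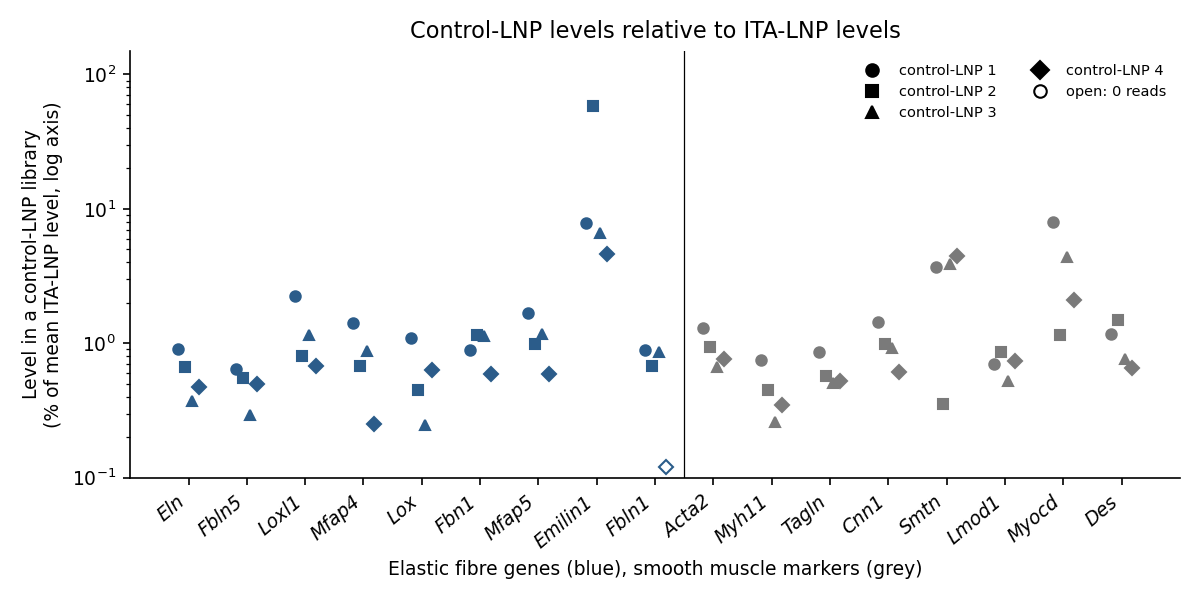
Level of each gene in each control-LNP library as a percentage of its mean ITA-LNP level (log axis), for 9 elastic fibre genes in blue and 8 smooth muscle markers in grey, with 1 point per library. Emilin1 lies at 4.58 to 58.4%, above every other elastic fibre gene in each of the 4 libraries, and the others lie at or under 2.24%.

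The departure of Emilin1 did not rest on control-LNP 2 alone. As a share of the mean ITA-LNP level, Emilin1 was at 7.80, 58.4, 6.58 and 4.58% in control-LNP 1 to 4. The median over the other 8 expressed elastic fibre genes was 1.00, 0.678, 0.873 and 0.543%. In each control library Emilin1 was the highest of the 9. The smooth muscle markers had medians of 1.23, 0.904, 0.716 and 0.696% in those libraries, close to the 8 elastic fibre genes. Single smooth muscle markers reached the range of Emilin1. Myocd was at 8.03, 1.14, 4.41 and 2.09% and Smtn at 3.72, 0.353, 3.86 and 4.45% in control-LNP 1 to 4, so Myocd lay above Emilin1 in control-LNP 1. Over the 1306 genes called higher the medians were 2.74, 0.727, 1.18 and 1.55%.

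Changes were also tested relative to that of Eln, by subtracting the log2(CPM + 1) of Eln in each library before the limma fit, an alternative chosen after the data were seen. Of 12635 genes, 97.2% differed from Eln by adjusted p, and 2 of the 8 other tested elastic fibre genes did. The log2 fold change of Eln was 7.34 and the median over all genes tested 0.15, so most genes had to differ from it. The 97.2% is therefore no background for genes already known to be far higher with ITA-LNP. Emilin1 changed by less than Eln, with a difference of -4.31 ± 0.88 on the log2 scale (SE, limma adjusted p = 0.000806, 95% interval -6.27 to -2.35), and -3.61 without control-LNP 2. Fbln1 differed by -3.04 ± 0.87 (SE, limma adjusted p = 0.00601), but by -1.58 ± 1.15 (adjusted p = 0.21) with a pseudocount of 0.25 CPM. For Fbln5 the difference was 0.18, with a 95% interval of -0.94 to 1.30. For Fbn1, Lox, Loxl1, Mfap4 and Mfap5 the differences ran from -1.46 for Mfap5 to -0.75 for Lox and did not pass the test. The interval of Mfap5, -3.27 to 0.36, leaves room for a difference from Eln of several-fold.

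The order of the genes was clear at the top of the ITA-LNP libraries. Eln took 44.7 ± 0.741% (SD, n = 3) of the summed CPM of the 10 genes and Fbln5 took 30.0 ± 1.16% (SD, n = 3), and neither range overlapped its neighbour. Loxl1, Mfap4, Lox and Fbn1 followed with overlapping ranges between neighbours. Mfap5 lay below Fbn1, Emilin1 overlapped Mfap5, and Fbln1 and Mfap2 were last. In the controls Emilin1 took 14.8, 65.4, 22.9 and 16.6% of the sum, against 1.52 to 2.47% with ITA-LNP. By mean level it moved from rank 8 in the ITA-LNP group to rank 1 in the control group, or rank 3 without control-LNP 2.

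**Figure D3:**
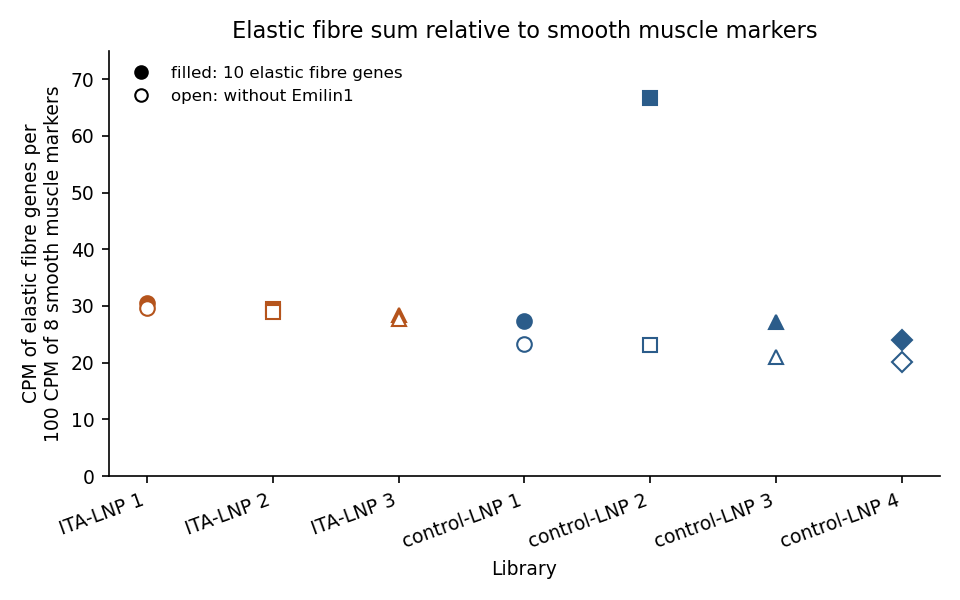
Summed CPM of the elastic fibre genes per 100 CPM of the 8 smooth muscle markers in each library, with all 10 genes (filled) and without Emilin1 (open). With Emilin1, control-LNP 2 stands out at 66.6, and without it the control-LNP libraries lie at 20.1 to 23.3 and the ITA-LNP libraries at 27.7 to 29.7.

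The elastic fibre genes were then set against the smooth muscle markers of the same library. The sum of the 10 genes was 4987, 5203 and 5690.4 CPM with ITA-LNP and 58.7, 99.3, 31.9 and 30.7 CPM in the controls, a ratio of 96.0, or 131 without control-LNP 2. Per 100 CPM of smooth muscle sum this gave 30.5, 29.4 and 28.3 against 27.3, 66.6, 27.1 and 24.1. Outside control-LNP 2 the controls lay just below the ITA-LNP libraries on this scale. Eln alone was at 13.9, 13.1 and 12.5 per 100 CPM against 7.52 to 10.6 in the controls. Its groups did not overlap. The two-sided exact permutation p was 0.0571, the smallest this test can give with 3 against 4 libraries. That value follows from the lack of overlap and adds nothing to it. The test was not planned and was run for Eln alone. Fbln5 was at 8.73, 9.04 and 8.66 against 4.77, 5.92, 3.92 and 6.18, also without overlap. Fbn1, Fbln1, Lox, Loxl1, Mfap4 and Mfap5 overlapped between groups on this scale. Emilin1 went the other way, at 0.753, 0.446 and 0.652 against 4.04, 43.5, 6.21 and 3.99.

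Relatives of the elastic fibre genes by family were read from the same fit. Of 17 relatives 14 could be tested, 8 passed as higher and 0 as lower, beside 10.3% higher and 5.15% lower of all genes tested. Their median log2 fold change was 3.50, against 0.15 over all genes tested. Some, such as Efemp1 and Fbln7, with control means of 0.288 and 0.208 CPM, entered the test only through the ITA-LNP libraries. This favoured a call as higher. Fbln2 (6.21, limma adjusted p = 0.000827), Efemp1 or fibulin-3 (5.12, 0.00274) and Fbln7 (4.98, 0.00271) passed. The log2 fold change of Fbln7 was 3.28 with a pseudocount of 4 CPM. Efemp2 or fibulin-4, needed for Lox to reach elastin, was at 10.8, 13.1 and 0.412 CPM with ITA-LNP and 0.985, 0, 0 and 0 CPM in the controls. Its log2 fold change of 2.38 did not pass (limma adjusted p = 0.123), and ITA-LNP 3 lay within the control range. It passed without that library (3.44, adjusted p = 0.0125), with quantile normalization (2.29, 0.0313) and with sample weights (2.53, 0.0267).

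**Figure D4:**
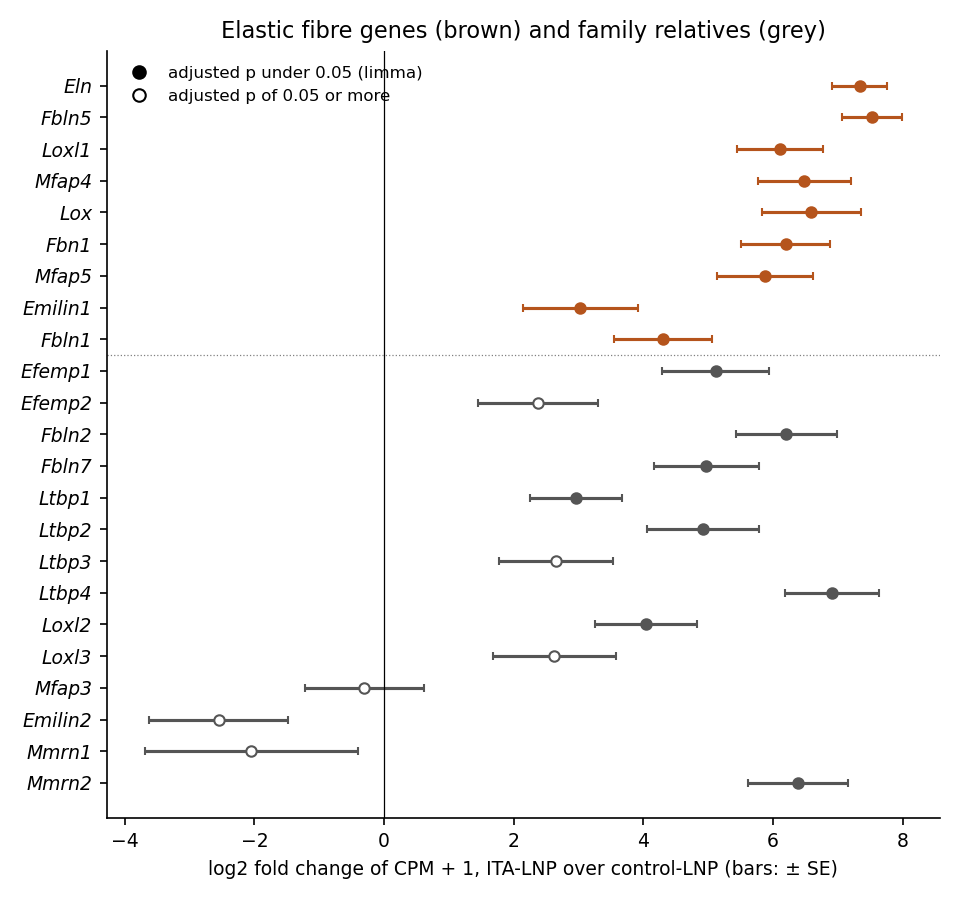
Log2 fold change of CPM + 1, ITA-LNP over control-LNP, with its standard error, for 9 elastic fibre genes (brown) and 14 relatives (grey), filled where the limma adjusted p was under 0.05. The 9 elastic fibre genes lie between 3.03 for Emilin1 and 7.52 for Fbln5, while Mfap3, Emilin2 and Mmrn1 have estimates under 0 that did not pass.

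Latent TGF-beta binding proteins share their domain plan with fibrillins. Ltbp4, needed for fibulin-5 to reach microfibrils, was at 245, 350.3 and 205 CPM against 1.58, 1.20, 0.577 and 1.48 CPM (log2 fold change 6.91, limma adjusted p = 0.000305). Ltbp2 also passed (4.92, limma adjusted p = 0.004). Ltbp1 was at 407, 476 and 589 CPM against 141, 13.9, 77.7 and 89.2 CPM and passed with a smaller log2 fold change of 2.96 (limma adjusted p = 0.0181). The call was lost in 5 alternatives, among them the fits without any 1 of the 3 ITA-LNP libraries, with adjusted p up to 0.0844, and median centring gave a log2 fold change of 1.84. Ltbp3 was at 174, 197 and 159 CPM against 26.4, 144, 17.7 and 7.38 CPM and did not pass (2.65, limma adjusted p = 0.0742), with control-LNP 2 again the high control. Without that library it passed (3.44, adjusted p = 0.00118). Fbn2, the fibrillin of embryonic tissue, had 0 reads with ITA-LNP and at most 5 reads in a control library.

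Among the other lysyl oxidases, Loxl2, which acts on basement membrane collagen, was at 65.9, 69.6 and 96.8 CPM against 1.97, 2.09, 7.31 and 5.41 CPM and passed (4.04, limma adjusted p = 0.00657). Its call was lost with median centring (adjusted p = 0.0604). Loxl3 was at 115, 119.8 and 194 CPM against 42.3, 2.24, 42.7 and 41.3 CPM and did not pass (2.63, limma adjusted p = 0.102), although the groups did not overlap. Without control-LNP 2, here the lowest control, the log2 fold change was smaller, at 1.70, and passed (adjusted p = 0.004). Loxl4 was too low to test. Mfap3, which shares the MFAP name, was at 11.3, 59.1 and 30.5 CPM against 20.9, 128, 37.7 and 13.1 CPM and overlapped between groups (-0.31, limma adjusted p = 0.875).

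**Figure D5:**
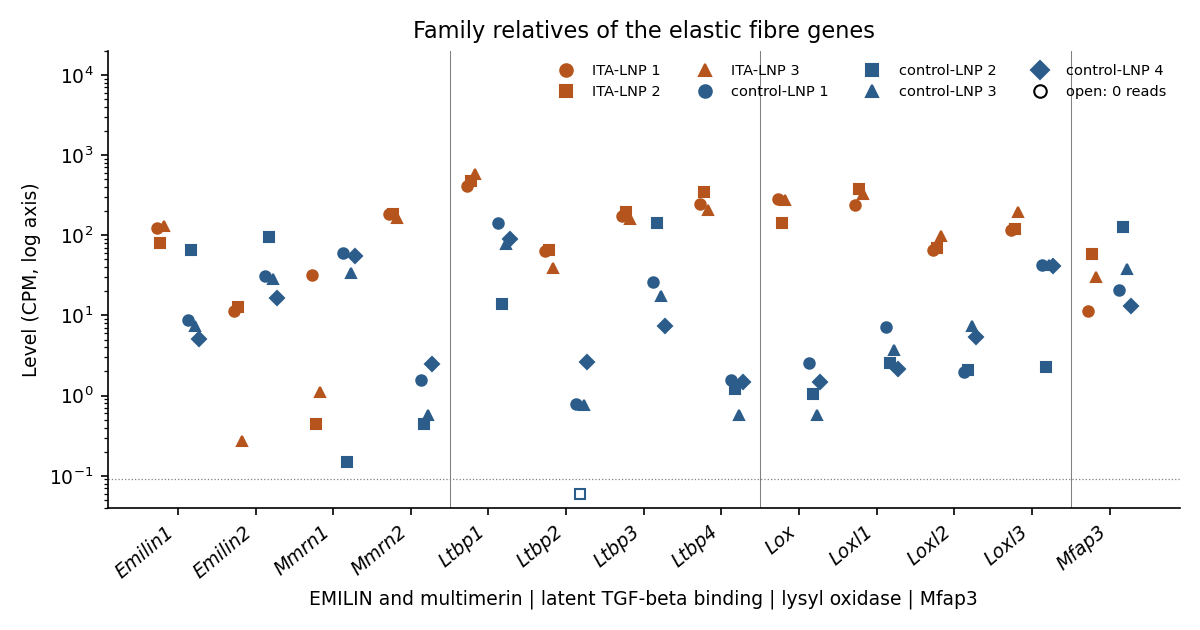
Level in CPM (log axis) of EMILIN and multimerin, latent TGF-beta binding, lysyl oxidase and Mfap3 genes, with 1 point per library and open symbols for 0 reads. Emilin1, Emilin2, Ltbp3 and Mfap3 have their highest control level in control-LNP 2, while Ltbp1, Loxl3 and Mmrn1 have their lowest there.

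The EMILIN and multimerin family was split. Mmrn2, an endothelial matrix glycoprotein, was at 184, 185 and 163 CPM against 1.58, 0.449, 0.577 and 2.46 CPM and passed as higher (6.39, limma adjusted p = 0.000659). Emilin2 was at 11.5, 12.8 and 0.275 CPM with ITA-LNP and 30.9, 94.3, 28.5 and 16.4 CPM in the controls. Its groups did not overlap, with the controls above, but the log2 fold change of -2.55 ± 1.07 (SE) did not pass (limma adjusted p = 0.148), and was -1.43 without ITA-LNP 3. Mmrn1, stored in platelets and endothelial cells, was at 31.8, 0.442 and 1.10 CPM against 59.3, 0.150, 33.9 and 54.6 CPM and did not pass (-2.05, limma adjusted p = 0.471), with values from -3.46 without ITA-LNP 1 to -1.21 without ITA-LNP 2, and -3.40 without control-LNP 2. Control-LNP 2 was its lowest library although its platelet marker sum, 6142 CPM, was among the highest. Emilin3 had 0 reads in every library.

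Together with these relatives, 63 genes of elastic fibre assembly, breakdown and cell contact were listed besides the 10. Of these 51 could be tested, 31 passed as higher and 3 as lower, with a median log2 fold change of 3.68. Over all genes tested, 10.3% were higher and 5.15% lower, with a median of 0.15. Some, such as Adamtsl3 and Fkbp10, with control means of 0.0866 and 0.0374 CPM, entered the test only through the ITA-LNP libraries. Without the filter 31 of 57 passed as higher and 2 as lower. In the assembly list, relatives included, 16 of 25 tested genes passed as higher and 0 as lower. Bgn, the proteoglycan biglycan that binds tropoelastin, was at 1368, 1445 and 965 CPM against 8.08, 8.37, 3.85 and 3.77 CPM (7.54, limma adjusted p = 3.79e-05). Adamtsl5, which associates with fibrillin (5.82), Vcan, the large proteoglycan versican (4.77), and Fkbp10, a collagen chaperone that also binds tropoelastin (4.23), passed too.

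Of genes that break down elastic fibres or hold the proteases back, 13 of 17 tested passed as higher and 2 as lower. Over all genes tested these shares were 10.3% and 5.15%. Mmp2, Ctsk, Timp4 and Timp1, with control means of 0.479, 0.609, 0.690 and 0.901 CPM, entered the test only through the ITA-LNP libraries. For these genes a call as higher was favoured in advance. Ctsl, an elastin-cleaving cathepsin, was the first by p, at 2961, 4381 and 5519 CPM against 41.4, 21.2, 34.0 and 34.4 CPM (6.98, limma adjusted p = 8.34e-06). The protease inhibitors Timp2 (5.54) and Timp3 (6.25) and the cathepsin Ctsb (2.64) passed as higher. Timp3 lies within Syn3 on the other strand, with 1733 exonic bases shared, so the split of reads between them is uncertain where the use of strand is not given, and Ctsb shares 774 exonic bases with Fdft1. Mmp9, a gelatinase that cuts elastin and is stored in neutrophils, was at 9.72, 0.589 and 0.137 CPM against 24.6, 270.001, 111 and 47.4 CPM and passed as lower (-4.86, limma adjusted p = 0.0148). Slpi, an inhibitor of neutrophil elastase, passed as lower as well (-3.95, limma adjusted p = 0.0352), with 1073 CPM in control-LNP 2. Both were highest in control-LNP 2, as was the neutrophil marker sum, whose part in these falls was not tested. Elane, Prtn3 and Ctsg, the neutrophil serine proteases, and Mmp7 had 0 reads in every library.

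Of 9 genes by which cells hold or sense elastic fibres, 2 passed as higher and 1 as lower, beside 10.3% higher and 5.15% lower of all genes tested. With so few genes nothing is read from these counts about the list. Itga8, the integrin subunit of smooth muscle, was at 1217, 1304 and 1190.7 CPM against 7.48, 8.82, 4.81 and 6.23 CPM (7.33, limma adjusted p = 2.03e-05). Itga5, the fibronectin receptor subunit, passed at a lower level (3.68, limma adjusted p = 0.0143). It was at 13.8, 39.5 and 7.69 CPM against 0.394, 0.150, 0.577 and 0.328 CPM, with 8 reads in all in the controls. Itga5 thus entered the test only through the ITA-LNP libraries, which favoured a call as higher. Itgb3, a subunit of the platelet fibrinogen receptor and of the receptor that binds fibulin-5 and fibrillin-1, was at 82.8, 133 and 34.9 CPM against 374, 268, 243 and 298 CPM and passed as lower (-1.99, limma adjusted p = 0.021). The platelet marker sum moved with it, at 45.0 to 153 against 4766 to 6355 CPM, and its part was not tested. Neu1, Ctsa and Glb1, a splice form of which belongs with the other two to the elastin receptor complex, did not pass, with log2 fold changes of -0.68, 0.73 and -0.07.

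The genes most like Eln over the 7 libraries, by Pearson's r of log2(CPM + 1), were Syn3 (0.9998), Col1a2, Sparc, Nova2 and Dcn (0.9996). These values mainly reflect the gap between the 2 groups that all share, and 300 of 12635 genes had r above 0.99. Syn3 shares 1733 exonic bases with Timp3 on the other strand, so how far its reads are its own is uncertain. Among the elastic fibre genes Fbln5 was nearest, at rank 19, and Emilin1 was the farthest, at r = 0.837 and rank 1455.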

How the data were processed

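The sample titles gave each library its group and number. Per the labels' protocols, 500 ng of total RNA went into QuantSeq 3′ mRNA libraries, and the submitters' processing notes name mm10. How reads were aligned and counted, and whether strand and molecular identifiers were used, is not given in the sources used here. Log10 values were deposited by the authors and read here as log10 of CPM + 1 because 10 to the power of each value, minus 1, sums to 1000000 in every library. Whole reads came out for 100% of values within a tolerance of 0.01, which gave the depths.

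The scale of the test was log2(CPM + 1), whose pseudocount of 1 CPM understates the change of low genes. Genes with a mean of at least 1 over all 7 libraries were kept, 12636 in all. The test was limma-trend (limma 3.58.1, R 4.3.3), ITA-LNP against control-LNP in 7 libraries with no covariate, and Benjamini-Hochberg adjustment over all genes tested. The procedure was tested on simulated data, with fewer changed genes than here, all well expressed and balanced in direction. That check does not cover genes with few reads or a shift as wide as this one. Alternatives were pseudocounts of 0.25 and 4 CPM, a filter at a mean of 2 or none, quantile normalization or median centring, sample weights, a prior that was robust or without the trend, the replicate block, voom on the recovered reads and leaving out each library. The change relative to Eln, and sums without Emilin1 or control-LNP 2, were added after the data were seen. Ratios to the smooth muscle sum, and the permutation test of Eln on that scale, were not planned in advance.

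The members and lists were chosen with earlier results of these data known. The naming rule took all 10 members and all 17 family relatives, then up to 4 genes in each direction with the smallest p from each other list, and the 5 genes most like Eln. Genes outside it, such as Elane and Neu1, were chosen after their values were seen. Marker lists covered 12 cell types. Further sums with ITA-LNP and control-LNP were: T cell 27.3 to 46.0 and 390.5 to 774 CPM, erythroid 2550.1 to 4229 and 12383 to 44743 CPM, macrophage 306 to 441 and 197 to 504 CPM, adipocyte 148 to 171 and 0.385 to 2.76 CPM, cartilage and bone 1134 to 1384 and 2.69 to 5.98 CPM, mesothelial 1.51 to 19.8 and 0.598 to 5.51 CPM. Coordinates came from GENCODE M21 on mm10, and start-site windows from RefSeq on GRCm38.p6. Python 3.11.15, pandas 2.3.3, numpy 2.4.6, scipy 1.17.1 and matplotlib 3.10.9 were used.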

Additional observations from a re-analysis of the deposited data

Results flagged for a closer look

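Among the 4 control-LNP libraries, 5 of 25 elastic fibre genes and relatives put to a gap test had 1 library far from the others by Dixon's 95% critical value, which chance reaches in about 1 in 20 groups of continuous values. Emilin1 was high in control-LNP 2, at 64.9 CPM, as was Ltbp3, at 144 CPM. Efemp1 was high there too, at 0.598 CPM, with 4 reads against 1 in each other control. Loxl3 was low in control-LNP 2, at 2.24 CPM. Efemp2 was high in control-LNP 1, at 0.985 CPM, with 5 reads against 0 in the other controls. For the low counts of Efemp1 and Efemp2 the 1 in 20 rate does not hold, and nothing is read from them.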

How the results depend on the processing

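The count of elastic fibre genes passing as higher was 7 to 9 over 18 alternatives and 8 to 9 when a library was left out. Of 162 gene values, 147 kept their call, 15 lost it and 0 changed sign; the losses were Emilin1 in 13 and Fbln1 in 2, and the cause was not tested. The count of other pathway genes that changed ran from 24 with median centring to 40 with sample weights, and from 29 to 39 when a library was left out, against 34. Mfap3 changed sign, from -0.31 to 0.43 with sample weights and between -0.84 and 0.32 when a library was left out, with no call in any. With the replicate block, which leaves out control-LNP 4, 7 elastic fibre genes and 29 pathway genes passed, and Emilin1 (adjusted p = 0.191) and Fbln1 (0.0506) did not. The numbers do not pair the libraries, since deviations of same-numbered libraries correlated at 0.005282, -0.0105 and -0.01729. Median centring lowered every log2 fold change by 1.13, quantile normalization moved the median of all genes by -0.34, and 7 of 9 elastic fibre genes passed as higher under the first and 9 of 9 under the second. With median centring Emilin1 (1.90, adjusted p = 0.43) and Fbln1 (3.17, adjusted p = 0.0688) did not pass. Over all genes 1306 were called higher and 651 lower, against 741 and 1249 with median centring, 1614 and 1401 with quantile normalization, 2100 and 2243 with sample weights, 738 and 322 with the replicate block and 1988 and 2065 without control-LNP 2. Low control reads limit Fbln1 and Mfap2, and 3 against 4 libraries limit every interval.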
